A study of Homo sapiens with 6 samples.

Results

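Solute carriers are membrane proteins that move ions, nutrients, metals and metabolites into cells or between their compartments, and they are named by family number. The expressed solute carrier genes of FUJIOKA cells were examined here with and without silencing of SPINK2. They were chosen from the deposited table as the genes whose symbol is SLC, a number, the letter A and a number, and whose mean normalised read count over all libraries was at least 100. This rule took 166 of the 63236 genes listed, from 43 families. Of 360 symbols of this form, 283 had a mean above 0, 117 of these stayed under 100, and 77 were listed at a mean of 0. Families with another letter, such as SLC35B or SLCO, are outside the rule.

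FUJIOKA is an established human acute myeloid leukaemia line. Its cells had been transduced with the doxycycline-inducible vector Tet-pLKO-puro and selected with puromycin. The 3 libraries of the control group, shNEG, carry a scrambled shRNA that targets no gene, and the 3 libraries of the shSPINK2 group carry an shRNA against SPINK2. Both groups are therefore stably transduced populations of the same line, and the time in doxycycline before RNA extraction was not given in the sources used here. The labels describe 2 SPINK2 shRNAs without tying either to a library, and the paper's methods name only shRNA1. Nothing in the labels says that the libraries came from separate cultures, so the p-values measure the spread between these libraries, which may be technical.

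Carriers for amino acids, sugars, monocarboxylates, nucleosides, vitamins and iron supply growth and division, and leukaemic blasts draw on many of them. The SLC25 family forms the largest group of carriers and sits mostly in the inner mitochondrial membrane, where it exchanges nucleotides, phosphate, amino acids and carboxylates with the cytosol. The SLC39 family brings zinc and related metals into the cytosol and the SLC30 family moves zinc out of it or into vesicles. Carriers of the SLC7 family that form light chains work with the SLC3A2 heavy chain, which brings them to the plasma membrane.

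The reads per library were recovered from the deposited mean, as described under the processing of the data, for all 166 members. Libraries held between 31580011 and 32329221 reads in the recovered genes, and their size factors differed by at most 4.85%. SPINK2 itself (ENSG00000128040.10, chromosome 4 from 56809860 to 56821742, GRCh38) had 53, 56 and 63 reads with shNEG and 6, 7 and 9 with shSPINK2. This is a log2 difference of -2.91 (SE 0.27, limma adjusted p = 1.71e-11), and an exact two-sided permutation test of 3 against 3 libraries gave p = 0.1, the smallest value this design allows. Of the 11 myeloid markers examined 10 reached a mean of 10, although CD34 was low (19.6) and KIT was under 1 (0.666). Reads were recovered for a different 10 of them, with KIT but without LYZ, the marker with the highest mean (44097). The summed normalised reads of these 10 ran from 70078 to 73653 with shNEG and from 75680 to 79769 with shSPINK2. CEBPA, the highest of these (mean 32858), was not called. Of the 10, 4 were higher, CD33 and ITGAM among them (fold 1.28 and 1.30), and 2 were lower, MPO and CD34 (fold 0.760 and 0.552). None of the 4 T cell markers reached a mean of 10, and HBB, HBA1, PF4, GP9, EPCAM and KRT18 were listed at 0. Of the markers of other lineages the B cell gene CD79A had the highest mean (183) and was higher with shSPINK2 (fold 1.49), and the 4 B cell markers summed to 174 to 183 with shNEG and 223 to 281 with shSPINK2. Their part in the results below was not tested. In bulk RNA, fewer cells of a type and less RNA per cell cannot be told apart.

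The level of a member is the mean normalised read count over the 6 libraries, the value that the rule used, and is given as a description. Member means ran from 107 to 20316 with a median of 1469, and the 10 highest members held 29.7% of the summed mean. The highest mean was that of SLC7A1 (20316), the cationic amino acid transporter that takes up arginine and lysine. SLC25A3, which imports phosphate into mitochondria, followed with 18129, and SLC25A5, which exchanges ADP for ATP, with 17729. Levels of different genes were compared per kilobase of annotated exon. On that scale SLC25A5 stood first at 11401 normalised reads per kilobase and its paralog SLC25A6 second at 7221, followed by the glutamine carrier SLC1A5 at 3863. SLC25A5 has many processed pseudogenes, so its reads are less certain. The median member had 247 normalised reads per kilobase. By substrate, the amino acid carriers held 24.1% of the members' summed mean, the SLC25 carriers of phosphate, nucleotides and cofactors 16.1% and the carriers of zinc, iron, copper and manganese 15.9%.

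**Figure D1:**
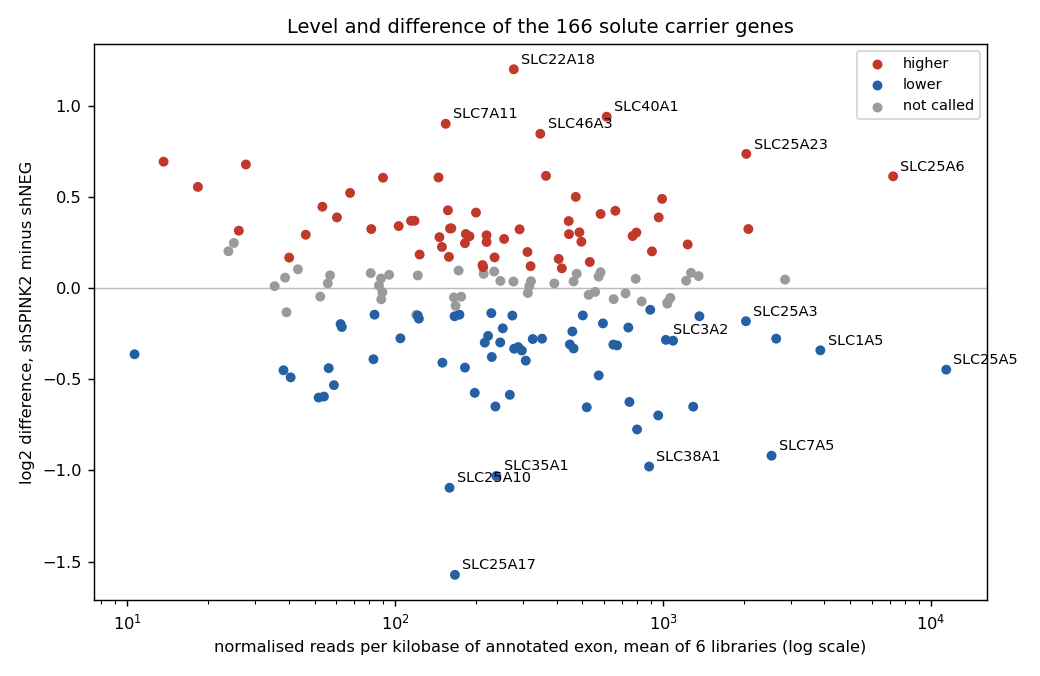
Each point is 1 of the 166 members, with its mean normalised reads per kilobase of exon over 6 libraries on a log axis and its log2 difference between shSPINK2 and shNEG on the other; colours give the call at adjusted p under 0.05. Higher and lower members lie at all levels, and SLC25A5 and SLC25A6, the members with the most reads per kilobase, lie on opposite sides of 0.

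The members closest to the threshold were SLC29A4 (mean 107), SLC16A10 (119.6) and SLC12A5 (122) just inside it, and SLC9A9 (87.0), SLC16A14 (83.3) and SLC31A2 (82.7) just outside. SLC9A9, an endosomal sodium/proton exchanger, had 102, 116 and 133 reads with shNEG and 52, 55 and 66 with shSPINK2. A member whose reads differ can pass the rule through the group where it is high. This was so for 2 members, SLC29A4 and SLC12A5, whose mean was under 100 in shNEG and above it in shSPINK2. Both are counted among the higher members below, although the rule favoured that direction for them.

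The question of the comparison was which carriers change when SPINK2 is silenced. Differences are given as the mean log2(normalised reads + 0.5) of shSPINK2 minus that of shNEG, tested with limma over 16031 genes and called at a Benjamini-Hochberg adjusted p under 0.05. Over all genes tested 58.6% were called, 28.7% higher and 29.9% lower in shSPINK2. Among the genes that reach a mean of 100, as the members do, 70.3% were called, 33.7% higher and 36.6% lower. Of the 166 members 59 were higher, 61 were lower and 46 did not pass the test, so that 35.5% were higher and 36.7% lower. These shares lie near those of all genes at the same level. The median log2 difference of the members was 0.03, beside -0.01 for all tested genes that reach a mean of 100. With the libraries scaled by their upper quartile instead, 74 members were called higher and 49 lower. The shRNA groups did not overlap for 123 members, beside 73.2% of all genes that reach that mean. Of the 120 called members, 4 overlapped. The absolute log2 difference of the 120 called members had a median of 0.32, with 24 members under 0.2, 90 under 0.5 and 4 over 1. The 4 called members over 1 are 2.41% of the members, beside 3.55% of all genes at that level. Of the called members 21 lost the call in at least 1 of 20 fits, with stricter call thresholds not counted. The coefficient of variation between libraries of a group had a median over members of 2.96% with shNEG and 4.33% with shSPINK2, where counting alone gives 2.67% and 2.55%.

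The 8 largest falls were led by SLC25A17 (ENSG00000100372.14, chromosome 22 from 40769630 to 40819399), a peroxisomal carrier for coenzyme A, FAD and NAD. It had 948, 999 and 1049 reads with shNEG and 329, 340 and 345 with shSPINK2. Every shSPINK2 library was under every shNEG library, with a log2 difference of -1.57 (SE 0.07, limma adjusted p = 1.78e-20). SLC25A10 (ENSG00000183048.11, chromosome 17 from 81712236 to 81721016), the mitochondrial dicarboxylate carrier, had 561, 563 and 586 reads with shNEG and 255, 269 and 283 with shSPINK2. Its difference was -1.09 (SE 0.07, limma adjusted p = 9.98e-15), and 46.6% of its annotated exon bases are shared with another gene. SLC35A1 (ENSG00000164414.17, chromosome 6 from 87470623 to 87512336), which brings CMP-sialic acid into the Golgi, had 575, 635 and 709 reads with shNEG and 291, 320 and 334 with shSPINK2. It differed by -1.03 (SE 0.08, limma adjusted p = 1.01e-13) and shares 55.5% of its exon bases with another annotated gene. Shared bases were counted on either strand, and the strand of the other gene was not recorded here. Reads from them cannot be told apart where both genes lie on the same strand. For genes on opposite strands this depends on whether counting used strand, which was not given in the sources used here.

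A pair of large amino acid carriers came next. SLC38A1 (ENSG00000111371.15, chromosome 12 from 46183063 to 46270017), a sodium-coupled carrier of glutamine and other neutral amino acids, had 11702, 11804 and 11827 reads with shNEG and 5639, 5979 and 6492 with shSPINK2. The shNEG libraries lay close together and the shSPINK2 libraries well under them, with a log2 difference of -0.98 (SE 0.05, limma adjusted p = 1.29e-18). SLC7A5 (ENSG00000103257.8, chromosome 16 from 87830023 to 87869507), the LAT1 light chain that exchanges large neutral amino acids such as leucine, had 15652, 15753 and 16114 reads with shNEG and 8366, 8419 and 8553 with shSPINK2. Its difference was -0.92 (SE 0.04, limma adjusted p = 1.78e-19). SLC5A6 (ENSG00000138074.14, chromosome 2 from 27199587 to 27212958), which takes up biotin, pantothenate and lipoate, had 5621, 5631 and 5678 reads with shNEG and 3211, 3376 and 3392 with shSPINK2 and fell as well (-0.77, adjusted p = 2.92e-17). SLC29A1 (ENSG00000112759.16, chromosome 6 from 44219553 to 44234142), the equilibrative nucleoside transporter through which cytarabine also enters cells, had 5050, 5093 and 5159 reads with shNEG and 3011, 3097 and 3415 with shSPINK2. It was lower in every shSPINK2 library (-0.70, adjusted p = 9.81e-15). SLC25A40 (ENSG00000075303.12, chromosome 7 from 87833568 to 87876360), a mitochondrial carrier linked to glutathione import, had 3168, 3228 and 3284 reads with shNEG and 1986, 2068 and 2153 with shSPINK2 (-0.65, adjusted p = 1.95e-14).

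The largest rise was that of SLC22A18 (ENSG00000110628.13, chromosome 11 from 2899721 to 2925246), a gene of the imprinted region of chromosome 11 whose substrate is not established. It had 868, 872 and 897 reads with shNEG and 1968, 1983 and 2169 with shSPINK2. The means were 878 ± 14.1 in shNEG and 2020.4 ± 75.2 in shSPINK2 (normalised reads, SD, n = 3 each), and the difference was 1.20 (SE 0.05, limma adjusted p = 2.99e-20). SLC40A1 (ENSG00000138449.10, chromosome 2 from 189560590 to 189583758) encodes ferroportin, the iron exporter of the cell, and had 1761, 1761 and 1816 reads with shNEG and 3309, 3395 and 3636 with shSPINK2. Its shNEG libraries agreed within 55 reads and its difference was 0.94 (SE 0.05, limma adjusted p = 2.32e-18). SLC7A11 (ENSG00000151012.13, chromosome 4 from 138164097 to 138242349), the xCT light chain that imports cystine in exchange for glutamate, had 988, 1025 and 1101 reads with shNEG and 1804, 1939 and 2133 with shSPINK2. It rose by 0.90 (SE 0.06, limma adjusted p = 7.92e-16). SLC46A3 (ENSG00000139508.14, chromosome 13 from 28700064 to 28718970), a lysosomal carrier, had 907, 933 and 977 reads with shNEG and 1562, 1729 and 1828 with shSPINK2 (0.85, adjusted p = 2.51e-15).

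The other rises among the 8 largest were smaller or rested on fewer reads. SLC25A23 (ENSG00000125648.14, chromosome 19 from 6436079 to 6465203), a calcium-regulated carrier that exchanges ATP-magnesium for phosphate across the inner mitochondrial membrane, had 7349, 7394 and 7731 reads with shNEG and 12022, 12549 and 13205 with shSPINK2 (0.74, adjusted p = 1.17e-16). SLC12A5 (ENSG00000124140.13, chromosome 20 from 46021690 to 46060150), a potassium-chloride cotransporter best known from neurons, had 73, 99 and 108 reads with shNEG and 126, 163 and 166 with shSPINK2 (0.69, adjusted p = 4.75e-05). It is among the lowest members, and its libraries spread more widely than those of the others in both groups. It passed the rule only through its shSPINK2 libraries, so its place among the rises is not independent of the rule. SLC22A5 (ENSG00000197375.12, chromosome 5 from 132369710 to 132395613), the carnitine transporter, had 362, 381 and 436 reads with shNEG and 618, 634 and 646 with shSPINK2 (0.68, adjusted p = 4.39e-10). SLC45A3 (ENSG00000158715.5, chromosome 1 from 205657851 to 205680509), also known as prostein, had 1039, 1103 and 1109 reads with shNEG and 1653, 1668 and 1703 with shSPINK2 (0.62, adjusted p = 1.82e-12). In all 16 genes the groups did not overlap.

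**Figure D2:**
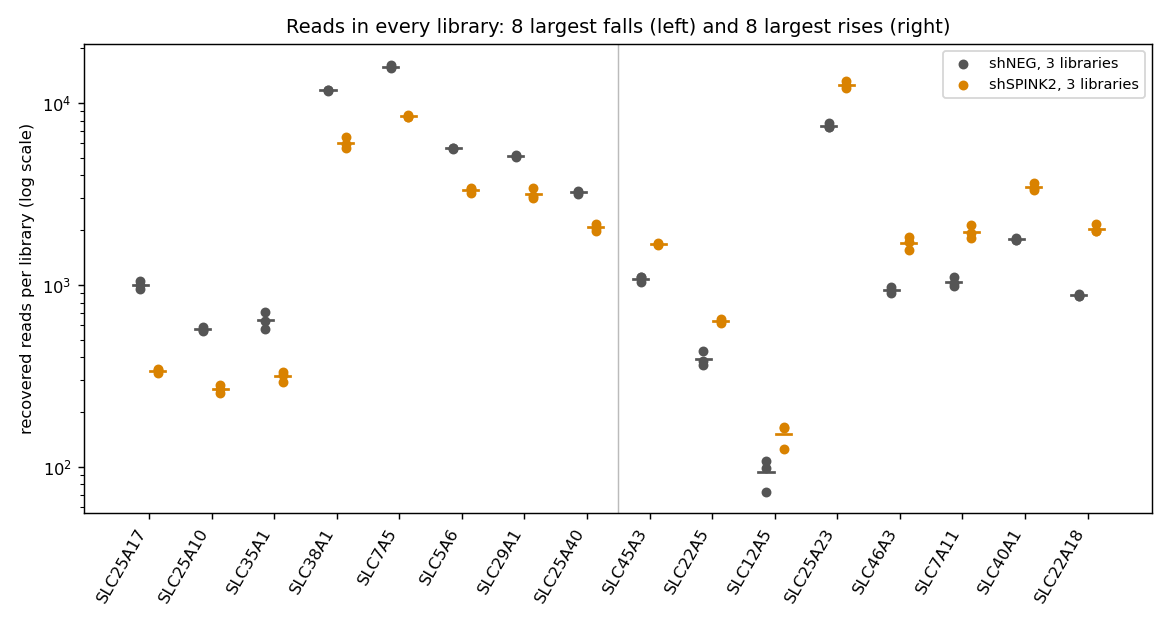
Recovered reads in each of the 6 libraries (log axis) for the 8 members with the largest called fall and the 8 with the largest called rise, ordered by log2 difference; each point is a library and each bar the mean of 3. In each gene all shSPINK2 points lie on the same side of all shNEG points, and SLC25A17 and SLC22A18 show the widest gaps.

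Grouped by what they carry, the members were placed in 21 substrate groups of 1 to 23 genes. The counts of every group stand beside the 33.7% higher and 36.6% lower of all genes that reach a mean of 100, and no group was tested against that share. Amino acid carriers of the plasma membrane and lysosome were the largest, and 7 of 23 members were higher, 7 were lower and 9 did not pass the test, with a median log2 difference of -0.02. The light chains that pair with the heavy chain SLC3A2 did not all move in its direction. The heavy chain SLC3A2 had 6917, 7302 and 7367 reads with shNEG and 5840, 6013 and 6024 with shSPINK2 and fell by 0.28 on the log2 scale (adjusted p = 6.27e-07). Of its light chains SLC7A5 fell and SLC7A11 rose, as given above. SLC7A8, which exchanges neutral amino acids as LAT2, rose (0.25, adjusted p = 8.29e-05). SLC7A6 (-0.10, adjusted p = 0.127) and SLC7A7 (0.07, adjusted p = 0.405), the exchangers of cationic for neutral amino acids, did not pass the test, and 55.6% of the exon bases of SLC7A6 are shared with other genes.

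Further amino acid carriers moved in both directions. Of them SLC1A5, SLC38A7, SLC43A1, SLC43A2 and SLC1A3 were chosen for mention after their values were seen, as were other carriers outside the naming rule in the paragraphs that follow. SLC7A1, the member with the highest mean, had 21978, 22071 and 22782 reads with shNEG and 18359, 18421 and 18832 with shSPINK2 (-0.28, adjusted p = 1.22e-06). SLC1A5, which brings in glutamine, had 14155, 14330 and 14700 reads with shNEG and 11162, 11586 and 11634 with shSPINK2 (-0.34, adjusted p = 2.18e-08). Both were lower in every shSPINK2 library, by less than 0.4 on the log2 scale. The glutamine carriers SLC38A2 (-0.05, adjusted p = 0.332) and SLC38A5 (-0.08, adjusted p = 0.123) did not pass the test beside the fall of SLC38A1. SLC38A7, a lysosomal carrier of glutamine and asparagine, had 726, 778 and 795 reads with shNEG and 1168, 1178 and 1184 with shSPINK2 and rose (0.61, adjusted p = 2.03e-11). The uniporters SLC43A1 (0.50, adjusted p = 1.60e-10) and SLC43A2 (0.43, adjusted p = 1.95e-09), which carry branched-chain and other large neutral amino acids without SLC3A2, rose too. SLC1A3, a glutamate and aspartate transporter, rose by 0.39 (adjusted p = 3.82e-08). SLC16A10, a carrier of aromatic amino acids with a mean near the threshold, had 121, 124 and 159 reads with shNEG and 95, 99 and 122 with shSPINK2, and its groups overlapped although it was called (-0.36, adjusted p = 0.0189). The call held in 14 of 20 fits, with an adjusted p of up to 0.171.

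Among the carriers of zinc, iron, copper and manganese 12 of 21 members were higher, 3 were lower and 6 did not pass the test, with a median log2 difference of 0.20. Of the 11 SLC39 zinc importers 6 were higher and 1 was lower, and of the 5 SLC30 exporters 4 were higher and none was lower. SLC39A7, which releases zinc from the endoplasmic reticulum and has the highest mean of the group, had 7217, 7425 and 7563 reads with shNEG and 9181, 9335 and 9517 with shSPINK2. The difference was 0.32 (SE 0.04, limma adjusted p = 4.22e-08). SLC39A11 (0.39, adjusted p = 8.66e-10) and SLC39A13 (0.41, adjusted p = 9.20e-08) rose most among the importers. SLC30A9 had 3080, 3138 and 3186 reads with shNEG and 3733, 3794 and 4215 with shSPINK2 (0.31, adjusted p = 1.29e-06), the largest rise of the exporters, and the SLC30A1 gene of the plasma membrane exporter rose by 0.20 (adjusted p = 0.00112). SLC30A5 did not pass the test (-0.04, adjusted p = 0.538). All these differences were under 0.5 on the log2 scale, and the copper importer SLC31A1 did not pass the test (0.04, adjusted p = 0.519).

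The iron carriers differed among themselves. The exporter SLC40A1 rose, as given above. SLC39A14, which takes up iron not bound to transferrin as well as zinc and manganese, had 4860, 5051 and 5055 reads with shNEG and 4014, 4033 and 4129 with shSPINK2 and fell (-0.31, adjusted p = 1.58e-07). SLC11A2, the divalent metal transporter DMT1, was called lower with overlapping groups (-0.15, adjusted p = 0.0195), a call that held in 14 of 20 fits, with an adjusted p of up to 0.139. The mitochondrial iron importers moved apart, with 1106, 1143 and 1156 reads with shNEG and 873, 892 and 944 with shSPINK2 for SLC25A28, or mitoferrin-2 (-0.34, adjusted p = 1.61e-06). SLC25A37, or mitoferrin-1, had 3589, 3596 and 3658 reads with shNEG and 4220, 4252 and 4582 with shSPINK2 (0.25, adjusted p = 5.27e-06). The lysosomal haem exporter SLC48A1, of the vitamin and haem group, had 1522, 1574 and 1643 reads with shNEG and 970, 1050 and 1173 with shSPINK2 and fell (-0.59, adjusted p = 3.45e-11).

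The 37 SLC25 carriers held 8 higher and 18 lower members with a median log2 difference of -0.09, and the other 129 members held 51 higher and 43 lower with a median of 0.06. This contrast was noticed in the values, and no test of it was made. Among the carriers of phosphate, nucleotides and cofactors, 5 of 15 members were higher, 8 were lower and 2 did not pass the test, with a median log2 difference of -0.15. The adenine nucleotide translocases, which export ATP from mitochondria, moved in opposite directions. SLC25A5 had 19819, 20347 and 21255 reads with shNEG and 14909, 14942 and 15571 with shSPINK2 (-0.45, adjusted p = 6.40e-11). SLC25A6 had 8645, 8974 and 8991 reads with shNEG and 13451, 13691 and 13911 with shSPINK2 (0.61, adjusted p = 2.11e-14). Their groups did not overlap. SLC25A4, the isoform of heart and muscle, was not a member. SLC25A3, the phosphate carrier, had 18903, 19283 and 19649 reads with shNEG and 16322, 17160 and 17980 with shSPINK2 (-0.18, adjusted p = 6.10e-04). SLC25A33, a pyrimidine nucleotide carrier, was lower as well (-0.22, adjusted p = 9.76e-04).

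Of the 7 SLC25 carriers of amino acids none was higher and 4 were lower, with a median of -0.15. SLC25A44, which imports branched-chain amino acids into mitochondria, had 1503, 1538 and 1545 reads with shNEG and 1109, 1134 and 1176 with shSPINK2 (-0.44, adjusted p = 4.01e-09). SLC25A13, the aspartate/glutamate carrier with the highest mean of the group, fell by 0.15 on the log2 scale (adjusted p = 0.00254), while its paralog SLC25A12 did not pass the test (0.04, adjusted p = 0.538). Among the 4 carboxylate carriers SLC25A10 fell, and SLC25A20, which brings acylcarnitines into mitochondria, rose with 916, 968 and 976 reads with shNEG and 1143, 1296 and 1397 with shSPINK2 (0.41, adjusted p = 2.08e-07). The citrate carrier SLC25A1, with the highest mean of these, did not pass the test (0.05, adjusted p = 0.403). In the remaining 9 carriers 1 was higher, SLC25A46 (0.14, adjusted p = 0.00566), and 4 were lower. SLC25A40 fell most of these, and SLC25A39, the related glutathione carrier, did not pass the test (-0.09, adjusted p = 0.0983).

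All 12 sugar carriers were called, beside 70.3% of all genes at that level, 7 higher and 5 lower, with a median of 0.16. SLC2A13 (0.20, adjusted p = 0.0520) did not pass the test. By its family it would count here, but it was moved to the polyol group after its values were seen. The glucose carriers SLC2A1 and SLC2A3 were lower. SLC2A1 had 1959, 2047 and 2149 reads with shNEG and 1608, 1616 and 1704 with shSPINK2 (-0.33, adjusted p = 3.81e-07). SLC2A3, with 1314, 1324 and 1327 reads with shNEG and 1082, 1206 and 1340 with shSPINK2, was called with overlapping groups (-0.15, adjusted p = 0.0296). Its call held in 11 of 20 fits, with an adjusted p of up to 0.234, and was lost without any of 5 of the 6 libraries. The call of SLC45A4 (higher by 0.12, adjusted p = 0.0434) held in 14 of 20 fits, with an adjusted p of up to 0.206. The fructose carrier SLC2A5 had the highest mean of the group and rose, with 5429, 5638 and 5762 reads with shNEG and 6351, 6527 and 6638 with shSPINK2 (0.20, adjusted p = 1.08e-04). SLC45A3, SLC2A11 (0.61, adjusted p = 4.62e-10) and SLC50A1 (0.49, adjusted p = 4.49e-11), a sugar transporter of the Golgi and plasma membrane, rose most. The 3 sugar-phosphate exchangers of the SLC37 family were lower, from -0.44 for SLC37A1 to -0.28 for SLC37A4, the glucose-6-phosphate transporter (adjusted p = 4.02e-06 and 5.71e-06). SLC2A9, which carries urate, is counted here by its family and rose (0.28, adjusted p = 1.71e-05).

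Among the carriers of carboxylates and ketone bodies 2 of 7 members were higher, 4 were lower and 1 did not pass the test, with a median log2 difference of -0.22. SLC16A1, the lactate carrier MCT1 with the highest mean of the group, had 4964, 5070 and 5148 reads with shNEG and 4232, 4366 and 4588 with shSPINK2 (-0.22, adjusted p = 1.02e-04). SLC16A3, the lactate exporter MCT4, had 4684, 4793 and 4830 reads with shNEG and 3638, 3823 and 4016 with shSPINK2 (-0.33, adjusted p = 6.87e-08). Both were lower in every shSPINK2 library. SLC16A13 fell most (-0.57, adjusted p = 3.92e-08). SLC5A12, a sodium-coupled monocarboxylate carrier with few reads, had 159, 174 and 196 reads with shNEG and 212, 222 and 228 with shSPINK2 (0.32, adjusted p = 0.00674). BSG and EMB, the partner proteins that take monocarboxylate carriers to the plasma membrane and are no solute carriers themselves, were higher. EMB had 12689, 13122 and 13240 reads with shNEG and 21932, 22940 and 26276 with shSPINK2 (0.85, adjusted p = 1.86e-16), and BSG rose less (0.31, adjusted p = 3.28e-07).

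Among the carriers of vitamins, cofactors and haem 1 of 8 members were higher, 4 were lower and 3 did not pass the test, with a median log2 difference of -0.19. Beside SLC5A6 and SLC48A1, the reduced folate carrier SLC19A1, through which methotrexate enters cells, fell with 5455, 5566 and 5713 reads with shNEG and 4673, 4711 and 4929 with shSPINK2 (-0.24, adjusted p = 1.22e-05). SLC23A2, an ascorbate transporter, was lower too (-0.30, adjusted p = 2.22e-06). The thiamine carrier SLC19A2 (-0.15, adjusted p = 0.0673), the folate carrier SLC46A1 (-0.05, adjusted p = 0.600) and the riboflavin carrier SLC52A2 (-0.03, adjusted p = 0.612) did not pass the test. SLC46A3 is counted here by its family.

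In the nucleoside and nucleobase group, 2 of 6 members were higher, 2 were lower and 2 did not pass the test, with a median log2 difference of 0.16. SLC43A3, a purine nucleobase carrier with the highest mean of the group, had 6873, 7115 and 7477 reads with shNEG and 4492, 4548 and 4747 with shSPINK2. It fell by 0.65 on the log2 scale (SE 0.04, limma adjusted p = 6.54e-15), close to the fall of SLC29A1, and 29.9% of its exon bases are shared with another gene. SLC29A3, an equilibrative carrier of lysosomes and mitochondria, rose (0.25, adjusted p = 2.05e-04). SLC29A4, the monoamine carrier just inside the threshold, had 80, 88 and 92 reads with shNEG and 120, 128 and 138 with shSPINK2 (0.56, adjusted p = 3.25e-04). It is 1 of the 2 higher members here and passed the rule only through its shSPINK2 libraries.

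All 6 carriers of acetyl-CoA and nucleotide sugars were called, 2 higher and 4 lower, with a median of -0.33. SLC35A1 fell most. SLC35A3, a carrier of UDP-N-acetylglucosamine, had 859, 864 and 878 reads with shNEG and 553, 642 and 680 with shSPINK2 (-0.49, adjusted p = 3.37e-08). SLC35A2, which brings UDP-galactose into the Golgi, rose instead (0.30, adjusted p = 4.68e-06). SLC35A4, with the highest mean, fell (-0.29, adjusted p = 1.44e-06). SLC33A1, which carries acetyl-CoA into the endoplasmic reticulum, rose by 0.30 (adjusted p = 1.83e-06) and shares 21.1% of its exon bases with another gene.

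Of the 7 carriers of bile acids, organic ions and drugs 5 were higher and none was lower, with a median of 0.37. The group was assigned by family, and SLC22A18 is counted in it although its substrate is not established. Beside SLC22A18 and SLC22A5, these were SLC22A15, with 2040, 2043 and 2059 reads with shNEG and 2482, 2759 and 2763 with shSPINK2 (0.37, adjusted p = 2.35e-08), the ergothioneine carrier SLC22A4 (0.32, adjusted p = 2.48e-05) and SLC10A7 (0.45, adjusted p = 4.20e-07). SLC22A16 (0.03, adjusted p = 0.824) and SLC10A3 (0.09, adjusted p = 0.168) did not pass the test. In the osmolyte, choline and polyol group 2 of 6 were higher and 2 lower. SLC6A6, which takes up taurine, had 5443, 5458 and 5688 reads with shNEG and 3954, 3983 and 4065 with shSPINK2 and fell (-0.48, adjusted p = 1.13e-11). SLC44A1, a choline transporter, had 6973, 7019 and 7032 reads with shNEG and 8892, 9359 and 10252 with shSPINK2 and rose (0.42, adjusted p = 7.12e-10). The myo-inositol carrier SLC5A3 fell (-0.28, adjusted p = 3.35e-05).

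Ion carriers moved in both directions and mostly by less than 0.4 on the log2 scale. Of the 9 carriers of protons, bicarbonate and other inorganic anions 3 were higher and 2 lower. SLC4A2, an anion exchanger with the highest mean of these, fell by 0.19 (adjusted p = 3.22e-04). Of the 6 members of the SLC12 family, counted by family as cation-chloride cotransporters, 2 were higher, SLC12A5 and SLC12A9 (0.31, adjusted p = 3.51e-07), and 3 were lower. Of these 2, SLC12A5 passed the rule only through its shSPINK2 libraries. Of the 6 carriers of alkali and alkaline earth cations 1 was higher, SLC24A1 (0.37, adjusted p = 3.50e-07), and 3 were lower. SLC41A2, a magnesium carrier, had 372, 386 and 398 reads with shNEG and 243, 256 and 273 with shSPINK2 (-0.59, adjusted p = 6.48e-08). Its relative SLC41A1, with the highest mean of that group, fell less (-0.15, adjusted p = 0.00732). Among the 4 carriers of phosphate and sulphate, SLC20A1, the sodium-phosphate cotransporter that also serves as a retroviral receptor, had 4941, 4982 and 5053 reads with shNEG and 3168, 3291 and 3339 with shSPINK2 (-0.62, adjusted p = 1.17e-14), and SLC26A2, a sulphate carrier, rose (0.17, adjusted p = 0.00300).

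The smaller groups held lipid, peptide and vesicle carriers. Of the 5 fatty acid carriers SLC27A2, which takes up fatty acids and activates very long chains to acyl-CoA, had 794, 806 and 819 reads with shNEG and 469, 518 and 573 with shSPINK2 and fell most (-0.65, adjusted p = 5.34e-10). SLC27A1 rose (0.37, adjusted p = 9.49e-07), and SLC27A3, with the highest mean, did not pass the test (0.08, adjusted p = 0.131). Both peptide and histidine carriers were called higher, SLC15A2 with 318, 318 and 365 reads with shNEG and 457, 468 and 525 with shSPINK2 (0.52, adjusted p = 3.95e-07) and SLC15A4 by 0.13 with overlapping groups (adjusted p = 0.0429). The call of SLC15A4 was lost when any of 4 of the 6 libraries was left out, with an adjusted p of up to 0.151. SLC17A9, which loads ATP into vesicles, fell (-0.31, adjusted p = 1.03e-06), and SLC17A5, which exports sialic acid from lysosomes, rose (0.27, adjusted p = 1.06e-04). SLC18A2, the vesicular monoamine transporter, had 240, 247 and 286 reads with shNEG and 160, 169 and 184 with shSPINK2 and fell (-0.60, adjusted p = 2.96e-06), and 56.4% of its exon bases are shared with other genes. Over all members, 28 shared more than 10% of their exon bases with another annotated gene. Of these 6 were higher and 15 lower, beside 53 higher and 46 lower of the other 138. They include SLC25A32 (80.8%), SLC39A1 (69.1%), SLC46A1 (60.6%), SLC52A2 (50.0%), SLC1A5 (23.8%) and SLC2A11 (24.0%).

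A list of 55 other membrane transport genes and partners was set beside the members, of which 53 could be tested. Of these 22 were higher, 18 lower and 13 did not pass the test, with a median log2 difference of 0.03. SMDT1, a subunit of the mitochondrial calcium uniporter, fell most, with 1261, 1410 and 1486 reads with shNEG and 395, 395 and 396 with shSPINK2 (-1.82, adjusted p = 1.72e-22), and its pore subunit MCU rose by 0.15 (adjusted p = 0.00784). SLCO4A1, an organic anion carrier, fell (-1.30, adjusted p = 9.83e-19). SFXN2 and SFXN1, of the mitochondrial sideroflexins that include serine carriers, fell as well (-1.02 and -0.34, adjusted p = 1.41e-16 and 2.11e-08), while SFXN3 rose (0.24, adjusted p = 2.42e-05). GLMP, the partner of the lysosomal carrier MFSD1, rose most (1.13, adjusted p = 4.14e-18), and MFSD1 rose with it (0.57, adjusted p = 5.95e-13). The pyruvate carrier subunit MPC1 was called lower (-0.13, adjusted p = 0.0191), a call lost under 5 alternatives, and MPC2 did not pass the test (0.11, adjusted p = 0.0664).

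The sequences that the members share with the shRNAs were looked at because an shRNA can lower genes beside its target. The target sequences of both shRNAs, given with the labels and 21 bases long, lie in the coding sequence of the canonical SPINK2 transcript on the minus strand of chromosome 4. The shRNA1 target spans the junction of exons 3 and 4, from 56811688 down to 56810168, and the shRNA2 target that of exons 2 and 3, from 56820537 down to 56811776 (GRCh38). The paper's methods name only shRNA1, and whether any of these libraries carries shRNA2 is not known. Capitals mark bases 10 to 16 of the shRNA2 target, a word of 7 bases that was taken up here because earlier results of these data had shown it.
shRNA1 target: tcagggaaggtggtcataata
shRNA2 target: cgccaaactGCTCTCAgtata

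The word GCTCTCA occurs in the canonical 3′ UTR of 25 of the 166 members, or 15.1%, and in that of 10.5% of the tested genes that reach a mean of 100 and have a 3′ UTR of more than 20 bases. It was in 5 of the 8 members with the largest falls and in none of the 8 with the largest rises. No share for the largest falls and rises of all genes stands beside this. Because the word was taken up from earlier results of these same data, its counts here are a description and no independent support. Of the 25 members with the word 6 were higher and 14 lower, with a median log2 difference of -0.15, and of the 141 without it 53 were higher and 47 lower, with a median of 0.04. Over all genes at that level 57.6% of those with the word and 35.3% of those without it were lower. The members with the word have longer 3′ UTRs, with a median of 3038 bases beside 1413. The same holds over all genes at that level, with a median of 3208.5 bases beside 1218.5. The part of this length in the differences was not tested. The sites of the 5 members with large falls are shown with 10 bases on either side and the word in capitals, on the transcript strand (GRCh38, GENCODE 44).
SLC25A17, 3′ UTR, chr22:40770516-40770542, minus strand: ggactattttGCTCTCAtgtgtaatgt
SLC35A1, 3′ UTR, chr6:87512247-87512273, plus strand: taactgttggGCTCTCAataatttgtg
SLC38A1, 3′ UTR, chr12:46185162-46185188, minus strand: gaagtcagaaGCTCTCAgggagggact
SLC38A1, 3′ UTR, chr12:46184609-46184635, minus strand: gctacaaactGCTCTCAaaagaatgaa
SLC7A5, 3′ UTR, chr16:87831826-87831852, minus strand: aggcccctggGCTCTCAcccagtcccc
SLC7A5, 3′ UTR, chr16:87831436-87831462, minus strand: caagccgcaaGCTCTCAgcaagtgccc
SLC25A40, 3′ UTR, chr7:87834256-87834282, minus strand: attttaatttGCTCTCAgagttctgtc

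SLC38A1 and SLC7A5 each hold the word in 2 places. The SLC38A1 site from 46184609 and the site of SLC41A2 share the longer stretch caaactGCTCTCA with the shRNA2 target. The word is not the match to guide bases 2 to 8 of either shRNA, which are the usual seed. For shRNA2 that match is TCAGTAT, present in 29 members, of which 11 were higher and 7 lower. For shRNA1 it is TCATAAT, present in 20 members, of which 7 were higher and 7 lower. TCAGTAT stands in the 3′ UTR of 16.2% and TCATAAT in that of 14% of all genes at that level. Of these genes 35.3% of those with TCAGTAT and 34.0% of those with TCATAAT were lower. Words were matched on the transcript strand, and the shRNA2 target holds GCTCTCA and TCAGTAT with 3 bases in common. A match is a description of the letters, and the part of the word in any member's difference was not tested. SLC25A10, SLC5A6 and SLC29A1 fell without it, and SLC2A5 and SLC39A11 rose with it.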

How the data were processed

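mRNA of 6 FUJIOKA libraries, 3 shNEG and 3 shSPINK2, was sequenced as paired-end reads. The authors aligned them with STAR 2.7.11 to hg38, counted reads per gene with featureCounts and ran DESeq2 1.40.0. The annotation release and the strand setting of counting were not given in the sources used here. The deposited table holds no value per library. Its mean per gene is a signal, the average of counts that the authors divided by size factors, and its log2 fold change and standard error are the authors' own comparison, as are its p-values and status.

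Whole reads per library were therefore recovered by searching for the counts that give the deposited mean at 15 significant digits. From a mean of 35, the log2 fold change and standard error served as a key to this search at full precision. Under a mean of 35 the mean alone was searched, and the log2 fold change had to agree only within 0.15. SPINK2 (mean 32.3) and CD34 were recovered in this looser way. The sign of the fold change of genes with 1 read in 1 library gave the group of each size factor. None of these columns is printed or compared, but the differences reported here come from reads recovered with them and are not independent of them. The settings of the search were chosen on the data from trial recovery rates, before any fit. Of 25948 genes searched, 25848 had exactly 1 solution, 4 had 2, 4 had none and 92 were not searched to the end. Genes without recovered reads hold 17.1% of the summed means. In simulated data 446 of 450 genes had exactly 1 solution and the reads of all 446 were right. The recovered libraries carry no replicate number.

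Differences were tested with limma 3.58.1 (R 4.3.3, mean-variance trend) on log2(reads divided by the size factor + 0.5) over the 16031 genes with 1 solution and a mean of at least 10, with Benjamini-Hochberg adjustment over all of them and calls at an adjusted p under 0.05. In simulated counts over 16031 genes, 62 of 100 genes changed by 0.5 on the log2 scale and 84 of 100 changed by 1 were called, with 5 unchanged genes called. No other genes were changed there, while 58.6% of the tested genes were called in the data. The simulated shares therefore need not hold for the fit to the data. Exon lengths, coordinates and 3′ UTRs came from GENCODE 44 on GRCh38, where all 166 members were found by identifier. Substrates were assigned by family from general knowledge, and SLC2A13, SLC5A12 and SLC26A1 were moved to the group of their own substrate after their values were seen.

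The members, the other gene lists and the shRNA words were chosen with earlier results of these data known. The naming rule took SPINK2, the highest member and the largest called rise and fall of each substrate group, the 8 largest called rises and falls, SLC3A2 with its light chains, the 3 genes on either side of the threshold and the adenine nucleotide translocases. Members named beyond it were chosen after their values were seen, and a few genes that the rule takes are not reported here. Alternatives covered scaling, centring, low-value filters, pseudocounts, variance models, protein-coding genes alone, edgeR 4.0.16, DESeq2 1.42.0, other call and member thresholds, longest transcripts and leaving out each library. edgeR with TMM was added after seeing the data.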

Additional observations from a re-analysis of the deposited data

How the results depend on the processing

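No called member and not SPINK2 changed sign in the 20 fits, while 19 of the members that did not pass the test did, all of them within 0.0733 of 0, SLC7A7 and SLC38A2 among them. Of the members, 50 of the 59 higher and 49 of the 61 lower were called in all 20 fits. Requiring a log2 difference over 1 as well left 296 genes higher and 475 lower, and 1 member higher and 3 lower. The median level of the members was 310.9 normalised reads per kilobase with the longest transcript in place of all exons. Leaving out each library in turn gave 4154 to 4469 genes higher and 4347 to 4752 lower, and 53 to 60 members higher and 53 to 62 lower. Calls of members were 59 higher and 61 lower with edgeR, the same numbers with edgeR and TMM, 55 and 53 with DESeq2, and 52 and 51 at an adjusted p under 0.01. Scaling by the upper quartile moved the median of all genes to 0.06 and gave 74 higher and 49 lower, and the medians of the amino acid and the alkali cation carriers, -0.02 and -0.03, became 0.04 and 0.03. Members taken from a mean of 50 numbered 177, with 60 higher and 63 lower, and from a mean of 200 they numbered 159, with 56 higher and 60 lower. The 21 other called members, with an absolute log2 difference of at most 0.36, lost the call in at least 1 fit. SLC2A3 was called in 11 of 20 fits, SLC15A4 in 13, SLC16A10, SLC11A2 and SLC45A4 in 14 each, and SLC41A1 and SLC5A12 in 19 each. Of the 46 members not called, 22 were called in at least 1 fit. No paired analysis was possible because the recovered libraries carry no replicate numbers. Precision is limited by 3 libraries per group, and the reads of 28 members lie partly on exon bases shared with other genes.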
